A study of Mus musculus with 6 samples.

Results

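The genes described here are 10 regulators of the naive pluripotent state of mouse embryonic stem (ES) cells, *Esrrb*, *Klf2*, *Klf4*, *Klf5*, *Tfcp2l1*, *Zfp42*, *Nr0b1*, *Tbx3*, *Gbx2* and *Tcl1*, read in ES cells with and without *Prdm14*. They were chosen by name, and every probe that the platform annotation assigns to one of them was taken. Of the 10 genes, 9 had such a probe, with 15 probes among them, out of 8343 genes and 14436 probes that were compared. No named probe was found for *Nr0b1*, so it has no value here. Gene expression was measured on Illumina Mouse WG-6 BeadChips in 6 samples, 3 labelled as *Prdm14* knockout (*Prdm14*-null below) and 3 as wild-type control. Both genotypes have the genetic background C57BL/6, and both were grown in 2i, a culture condition in which inhibitors of MEK and of glycogen synthase kinase-3 hold ES cells in the naive state. The null cells were themselves derived in 2i, and the study's *Prdm14* mutation is an allele of the EUCOMM repository on that background. The samples of a genotype came from successive passages, and no source used here states how many lines they represent. The p-values therefore cover the variation among these 6 samples and no more.

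Naive ES cells correspond to the epiblast of the preimplantation embryo. Their state is kept by a circuit of transcription factors around *Pou5f1*, *Sox2* and *Nanog*, which receives LIF through STAT3 and WNT through beta-catenin, a protein that relieves the repression exerted by TCF7L1. Known targets of these inputs are *Klf4*, *Gbx2* and *Tfcp2l1* on the STAT3 side, *Esrrb* on the beta-catenin and TCF7L1 side, *Tbx3* for PI3K signalling and *Klf2*, whose protein is stabilized by MEK inhibition, on the ERK side. *Prdm14* encodes a PR domain zinc finger protein that represses the FGF receptor pathway and de novo DNA methylation in these cells. *Tcl1* differs from the rest of the group, since it encodes a co-activator of the kinase AKT and not a transcription factor.

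Several facts of the whole array set bear on what follows. *Prdm14* itself was detected on 3 of 3 wild-type and 0 of 3 null arrays and was at least 6.62-fold lower in the null cells (limma, adjusted p = 2.46e-07), although it is not known whether its probes lie in the deleted stretch. All 8 markers fixed for ES cells were above background on every array. Their summed linear normalized signal lay between 50150 and 52180 on the wild-type and between 48850 and 52660 on the null arrays. The brightest of them, *Dppa5a* (mean log2 signal 14.77 in wild-type and 14.72 in null cells), weighs most in this sum. The sum therefore says little about the dimmer markers. Of the 8, *Utf1* and *Sox2* were called higher, 0 were called lower and 6 were not called, by the test described below. Of markers of other cell types, 1 of 10 for endoderm, 4 of 8 for trophectoderm, 1 of 6 for neuroectoderm, 2 of 7 for mesoderm and 1 of 8 for fibroblasts passed the filter on dim probes. The summed signal of the trophectoderm markers was 543 to 738 in wild-type and 687 to 832 in null cells and that of the mesoderm markers 467 to 643 and 347 to 441. The endoderm marker *Dab2* stood at 68.1 to 105 in wild-type and at 91.4 to 296 in null cells, the neuroectoderm marker *Nes* at 40.5 to 66.5 and at 50.8 to 57.9, and the fibroblast marker *Thy1*, detected on 0 of 3 wild-type arrays, at 31.5 to 34.1 and at 85.9 to 158. Among them the trophectoderm factor genes *Tfap2a* and *Gata3* and *Thy1* were called higher and the keratin gene *Krt7* and the mesoderm factor gene *Gsc* lower, by the test described below, while *Dab2* (adjusted p = 0.0586) and *Nes* were not called. *Krt7* was not called without wild-type replicate 2 (adjusted p = 0.011) or null replicate 1 (0.0104), and neither *Krt7* (0.0242) nor *Gata3* (0.0109) was called with no filter on dim probes. Their part in the results below was not tested. The Y-linked gene *Eif2s3y* was detected on 0 of 3 wild-type and 3 of 3 null arrays and was at least 7.46-fold higher in null cells (adjusted p = 9.55e-07). The other tested Y-linked gene, *Uty*, was detected on 3 of 3 arrays of both genotypes and was not called (log2 fold change 0.31, adjusted p = 0.132). Whatever sets *Eif2s3y* apart and the loss of *Prdm14* cannot be told apart in this design. The median log2 fold change was -0.14 over 724 genes of chromosome 11 and -0.18 over 336 genes of chromosome 15. It was 0.13 on chromosome 13, 0.12 on the X chromosome and 0.02 over all genes. No gene of the group with a probe lies on chromosome 11 or 15. The reason for these shifts was not tested.

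The promoters of 3 genes are shown because they hold, or lack, sites for the factors of the circuit itself. RefSeq promoters (GRCm38.p6, 250 bases before to 50 bases after the start site) were found for 8 of the 10 genes, with 9 entries, and none for *Klf5* and *Tbx3*. *Tfcp2l1* and *Tcl1* are genes whose signal fell without *Prdm14*, and *Zfp42* is one whose signal did not pass the test. Sequences are given 5′ to 3′ on the strand of the gene, and capitals mark matches to a motif. Positions are counted from the start site, with the base before it as -1, and name the first base of a match.
*Tfcp2l1*, chr1:118627695-118627994, plus strand: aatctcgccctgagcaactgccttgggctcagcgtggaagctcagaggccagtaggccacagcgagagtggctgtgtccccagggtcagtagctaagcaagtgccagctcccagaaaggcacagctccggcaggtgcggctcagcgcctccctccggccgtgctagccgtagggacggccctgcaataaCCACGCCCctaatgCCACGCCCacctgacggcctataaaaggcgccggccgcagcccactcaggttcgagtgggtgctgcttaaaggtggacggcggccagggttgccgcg
*Tcl1*, chr12:105222688-105222987, minus strand: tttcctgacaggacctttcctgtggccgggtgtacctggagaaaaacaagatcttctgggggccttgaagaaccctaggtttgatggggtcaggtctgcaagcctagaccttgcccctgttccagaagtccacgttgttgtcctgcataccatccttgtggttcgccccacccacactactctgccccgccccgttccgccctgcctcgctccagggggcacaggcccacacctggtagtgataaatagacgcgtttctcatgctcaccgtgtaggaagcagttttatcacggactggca
*Zfp42*, chr8:43306960-43307259, minus strand: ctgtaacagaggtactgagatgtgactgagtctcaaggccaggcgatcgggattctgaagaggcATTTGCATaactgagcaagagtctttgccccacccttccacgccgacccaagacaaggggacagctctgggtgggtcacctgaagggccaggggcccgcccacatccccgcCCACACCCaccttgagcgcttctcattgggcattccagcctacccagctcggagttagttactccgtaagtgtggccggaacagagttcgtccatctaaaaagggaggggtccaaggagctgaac
The capitals in *Tfcp2l1* are 2 copies of CCACGCCC, at -61 and -47. They match, on the opposite strand, the letters GGGNGTGG of the sites that Krüppel-like factors bind. *Zfp42* has 1 such match, CCACACCC at -75, and 1 match to the octamer ATGCAAAT bound by POU5F1, as ATTTGCAT at -186. The Krüppel-like letters occur on either strand in 17.6% of 32851 RefSeq promoters of this length and the octamer in 1.74%, so the former are common. None of the 9 entries held the letters TTCCNGGAA of STAT3 (1.15% of all promoters), ATCAAAG of TCF7L1 (3.73%), TCAAGGTCA of ESRRB (0.423%) or GGTCTCTAA of PRDM14 (0.256%), searched on both strands. The matches found do not overlap one another, and distal enhancers lie outside these windows.

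In the absence of *Prdm14*, *Tcl1*, *Klf5* and *Tfcp2l1* fell to between 60.0% and 65.6% of their wild-type signal. *Gbx2* had the largest difference, at 50.3% of the wild-type signal, but did not pass the threshold. *Klf2*, *Klf4*, *Esrrb*, *Tbx3* and *Zfp42* did not pass either and had signals between 86.7% and 110% of wild-type. Values are log2 signals after background correction, an offset of 16 and quantile normalization, each gene is represented by its brightest probe, and a gene was called at an adjusted p under 0.01 in a limma fit across all 14436 tested probes. By this rule 3 of the 9 genes were lower, 0 were higher and 6 were not called, where 8.40% of all 8343 genes were called lower and 6.69% higher. At the level of probes 4 of 15 were called lower, against 7.56% of all probes. In 6 of the 9 genes, *Gbx2*, *Tcl1*, *Klf5*, *Tfcp2l1*, *Klf4* and *Esrrb*, every wild-type sample lay above every null sample, a pattern that 21.5% of all genes show. The reverse pattern, found in 23.6% of all genes, was seen in 0 of 9. The median log2 fold change of the 9 genes was -0.21, and that of all genes was 0.02, with quartiles of -0.19 and 0.22. All 15 probes were above background on all 6 arrays. The count of lower genes was 1 without null replicate 2 and 2 without wild-type replicate 2 or wild-type replicate 3, so it rests on few samples.

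**Figure D1:**
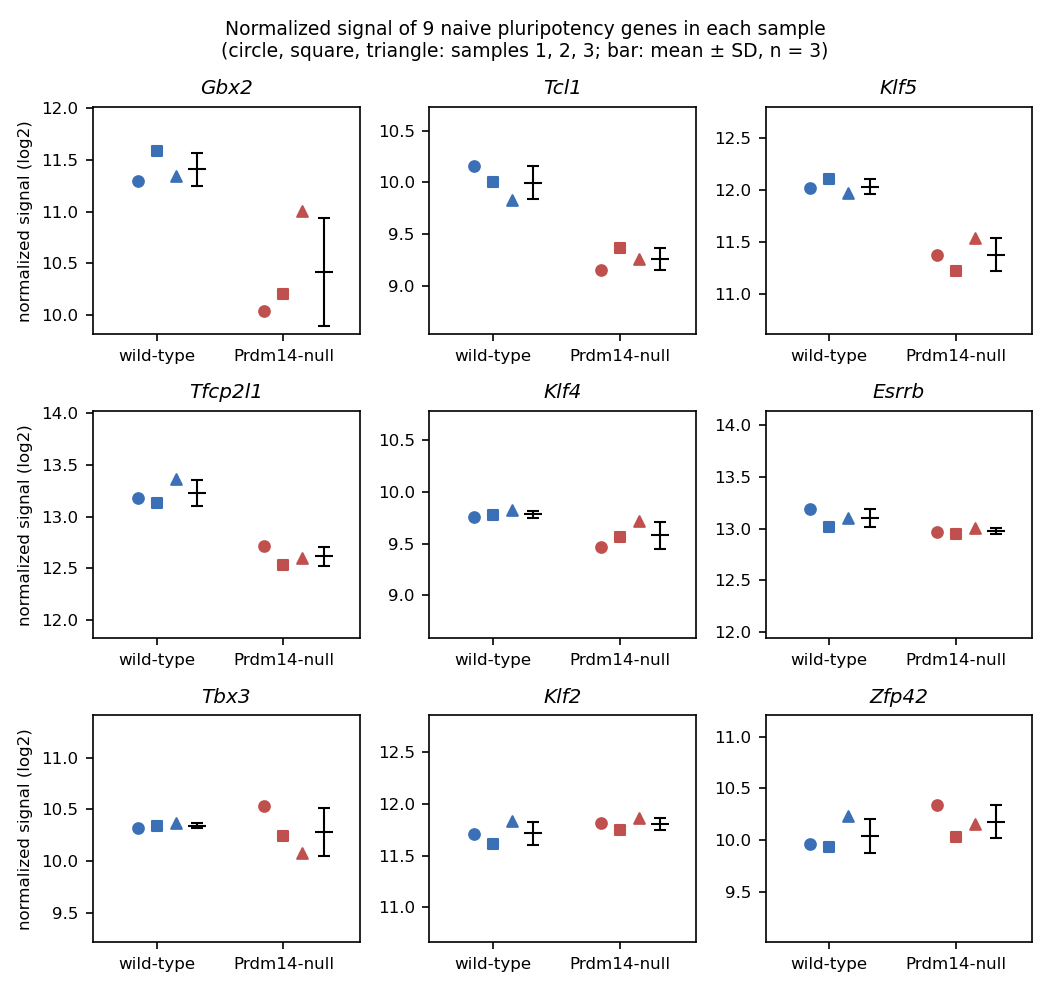
Normalized log2 signal (vertical axis) of the brightest probe of 9 genes in each of 6 samples, wild-type in blue and *Prdm14*-null in red, with mean ± SD (n = 3). Each panel spans the same range of log2 units. The groups are clearly apart for *Tcl1*, *Klf5* and *Tfcp2l1*, the third null sample of *Gbx2* (11.01) lies near the wild-type samples, and *Tbx3*, *Klf2* and *Zfp42* overlap.

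*Tcl1*, the AKT co-activator, was called on both of its probes. *Klf5*, *Tfcp2l1* and *Gbx2* have 1 probe each, so their values could not be compared between probes. Its brighter probe read 10.16, 10.003 and 9.83 in the wild-type samples and 9.15, 9.37 and 9.26 in the null samples. The lowest wild-type sample was thus above the highest null sample. The log2 fold change was -0.74 (standard error, SE, 0.12; adjusted p = 0.00184), which leaves 60.0% of the wild-type signal, with 71.9% as the upper end of the 95% interval. The dimmer probe read 8.55, 8.61 and 8.55 in wild-type and 7.88, 7.85 and 7.84 in null cells, with very little spread within a genotype. Its log2 fold change was -0.71 (SE 0.09, adjusted p = 0.000507), so both probes gave nearly the same size. Both were called whichever sample was left out, 6 of 6 times. *Tcl1* is also a gene that the study displays from these samples, so its direction is not independent evidence.

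Among the Krüppel-like factors *Klf2*, *Klf4* and *Klf5*, zinc finger proteins that can replace one another in part in ES cell self-renewal, the one that fell was *Klf5*. Its signal was 12.02, 12.11 and 11.97 in wild-type samples and 11.37, 11.21 and 11.54 in null samples. Every null sample was below every wild-type sample. On the log2 scale it changed by -0.66 (SE 0.11, adjusted p = 0.00267), or 63.3% of wild-type with a 95% interval of 53.2% to 75.3%. The adjusted p was 0.0127 without wild-type replicate 2 and 0.0138 without null replicate 2. *Klf2*, the KLF whose protein MEK inhibition stabilizes, read 11.71, 11.61 and 11.83 in wild-type and 11.82, 11.74 and 11.86 in null cells. These groups overlap. Its log2 fold change was 0.09 (SE 0.10, adjusted p = 0.541), with a 95% interval of 91.1% to 125% of wild-type, the lower end of which lies above the interval of *Klf5*. *Klf4*, the reprogramming factor, has 3 probes. The brightest read 9.75, 9.78 and 9.82 in wild-type and 9.46, 9.56 and 9.72 in null cells. The groups do not overlap, but the third null sample nearly reaches wild-type. The log2 fold change was -0.21 (SE 0.10, adjusted p = 0.173), with an interval of -0.43 to 0.02. The dimmer *Klf4* probes gave -0.09 (adjusted p = 0.549) and -0.01 (adjusted p = 0.971), and their groups overlap.

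Whether the KLF genes differed from one another was examined within arrays, by the difference between the log2 signals of 2 genes on the same array. Such a difference has no meaning as a level between genes, since probes differ in brightness, but its shift between genotypes does. *Klf5* minus *Klf2* moved by -0.75 from wild-type to null cells, *Klf5* minus *Klf4* by -0.45 and *Klf4* minus *Klf2* by -0.30. In each pair the 3 null samples lay below the 3 wild-type samples. Only the brightest probe of each gene entered these differences. The dimmer *Klf4* probes changed less (-0.09 and -0.01), so the size and separation of the shifts with *Klf4* depend on the probe. The exact two-sided permutation test gave p = 0.1 for each, the smallest that 3 against 3 samples allow (adjusted p = 0.1 over 4 pairs), so none can pass a threshold of 0.05 in this design. With any 1 sample left out the shifts ranged from -0.84 to -0.66, from -0.51 to -0.39 and from -0.34 to -0.23. Each shift therefore kept its sign, with *Klf5* the gene that lost most signal in both pairs that hold it.

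**Figure D2:**
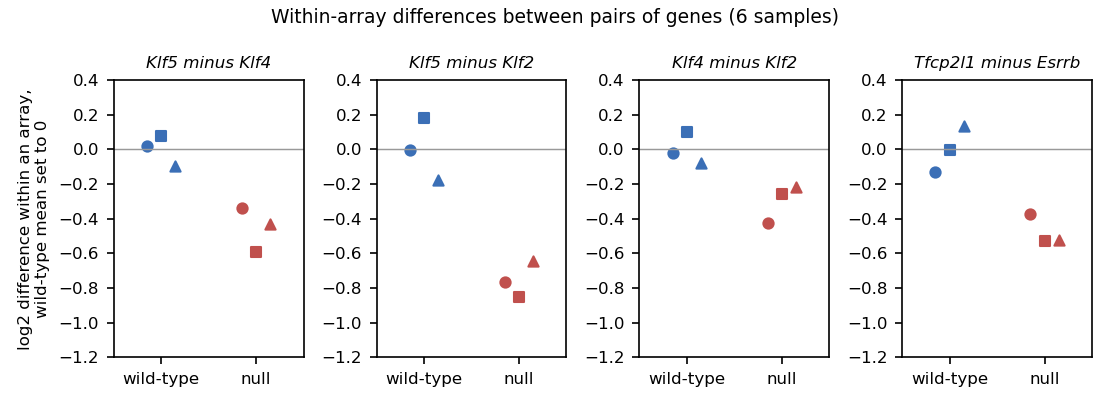
Difference of the log2 signals of 2 genes on the same array (vertical axis, with the wild-type mean set to 0) for 4 pairs, in 3 wild-type (blue) and 3 *Prdm14*-null samples (red). Every gene is read by its brightest probe only. Each null sample lies below each wild-type sample in all 4 panels, with mean shifts of -0.45, -0.75, -0.30 and -0.48 from left to right.

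*Tfcp2l1* and *Esrrb* are partners in the circuit, the former a grainyhead-related factor and STAT3 target, the latter an orphan nuclear receptor and the main gene released from TCF7L1 repression. *Tfcp2l1* read 13.18, 13.13 and 13.37 in wild-type and 12.72, 12.54 and 12.60 in null samples, and no sample of one group reached the other. Its log2 fold change was -0.61 (SE 0.11, adjusted p = 0.00325), or 65.6% of wild-type with a 95% interval of 55.6% to 77.5%. The adjusted p was 0.0152 without wild-type replicate 3, 0.0185 without null replicate 2 and 0.0125 without null replicate 3. *Esrrb* read 13.19, 13.02 and 13.11 in wild-type and 12.97, 12.95 and 13.004 in null samples. The groups were apart by a margin smaller than the spread among the wild-type samples. The difference of means was -0.13 on the log2 scale (SE 0.09, adjusted p = 0.346), or 91.3% of wild-type with an interval of 78.8% to 106%. The within-array difference *Tfcp2l1* minus *Esrrb* was 0.12 ± 0.13 (SD, n = 3) in wild-type and -0.36 ± 0.09 in null cells, a shift of -0.48 (exact two-sided permutation p = 0.1, the smallest possible). Without any 1 sample this shift stayed between -0.54 and -0.41.

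*Gbx2*, a homeobox gene downstream of STAT3, showed the widest spread of the group. Its signal was 11.30, 11.58 and 11.34 in wild-type samples and 10.04, 10.20 and 11.01 in null samples. Null replicates 1 and 2 were more than 1 log2 unit below every wild-type sample, and null replicate 3 was below the lowest by a small margin. The mean was 11.41 ± 0.16 (SD, n = 3) in wild-type and 10.42 ± 0.52 in null cells. The log2 fold change of -0.99 (SE 0.23, interval -1.51 to -0.47) had an adjusted p of 0.0129 and was not called. Without null replicate 3 it was -1.29, with an adjusted p of 0.000353. In the authors' processed values the log2 fold change was -0.96 and passed (adjusted p = 0.00407).

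**Figure D3:**
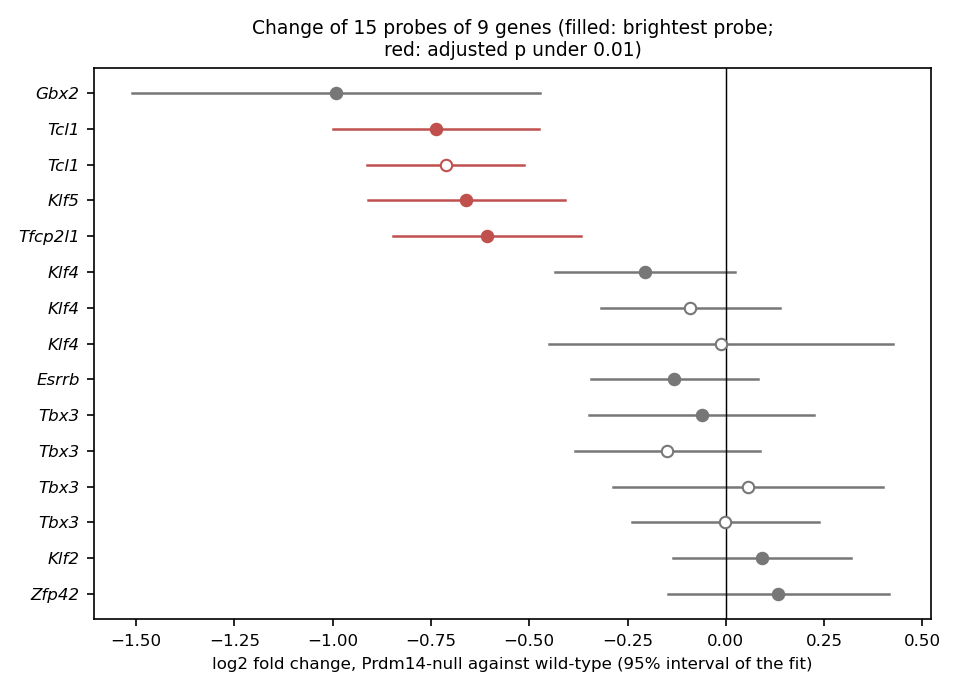
Log2 fold change between *Prdm14*-null and wild-type cells (horizontal axis) of 15 probes of 9 genes, with the 95% interval of the limma fit. Filled points are the brightest probe of a gene and red marks an adjusted p under 0.01. Both *Tcl1* probes, *Klf5* and *Tfcp2l1* are red, *Gbx2* (-0.99) has the widest interval, and the intervals of the other probes include 0.

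*Zfp42*, which encodes the zinc finger protein REX1 and is the usual reporter of the naive state, did not pass the test. It read 9.96, 9.93 and 10.23 in wild-type and 10.34, 10.03 and 10.16 in null samples. The groups overlap and the sample with the highest signal was a null one. The log2 fold change was 0.13 (SE 0.12, adjusted p = 0.472), or 110% of wild-type with a 95% interval of 90.3% to 133%. *Tbx3*, a T-box factor linked to PI3K signalling, has 4 probes. The brightest read 10.32, 10.34 and 10.37 in wild-type and 10.53, 10.24 and 10.07 in null samples. The wild-type samples lay close together (SD 0.02) and the null samples on both sides of them (SD 0.23). The log2 fold change was -0.06 (SE 0.13, adjusted p = 0.757). The other *Tbx3* probes gave values from -0.15 to 0.06 and none was called.

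The LIF and STAT3 branch lies upstream of several of these genes. The 9 genes read for this branch, all tested, mix inputs such as receptors, kinases and *Stat3* with outputs such as *Pim1* and *Socs3*. Of them 4 were called lower, 1 was called higher and 4 were not called, with a median log2 fold change of -0.50. These figures therefore do not describe the input alone. They and the counts of the lists below stand beside 8.40% of all genes called lower and 6.69% called higher. *Stat3*, the transcription factor that carries the LIF signal, was at 9.35 ± 0.09 (SD, n = 3) in wild-type and 8.13 ± 0.06 in null cells. This is a change of -1.22 on the log2 scale (SE 0.10, adjusted p = 4.06e-05). Of its other probes, 1 was called (-0.94, adjusted p = 0.000313) and 1 was not (-0.76, adjusted p = 0.0504). *Stat3* is also shown by the study from these samples. The kinase gene *Pim3* had a log2 fold change of -1.14 (adjusted p = 6.98e-05), and *Pim1*, a classical STAT3 target, was at least 1.30-fold lower (adjusted p = 0.000115). *Jak1*, the receptor-associated kinase, was at least 1.89-fold higher (adjusted p = 0.00159, but 0.015 with no filter on dim probes). *Tyk2*, another such kinase, was the remaining gene called lower (-0.50, adjusted p = 0.00458), and it was not called when any 1 sample was left out (adjusted p 0.0113 to 0.0259) or with a replicate block (0.0143). The receptor gene *Lifr* had a log2 fold change of 0.01 and was not called. Its means of 6.04 in wild-type and 6.05 in null cells were near the lowest detected signals of the arrays (5.52 to 5.87). Another receptor gene, *Il6st*, had one of -0.66 (adjusted p = 0.0216), not called here but called in 5 of 11 other settings. The feedback inhibitor *Socs3* had one of 0.34 (adjusted p = 0.0387) and was not called.

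Of the beta-catenin and TCF7L1 branch 8 of 10 genes were tested, with 2 lower, 0 higher and a median of -0.26. *Lef1*, a TCF family member that is also a target of WNT signalling, was at least 1.53-fold lower (adjusted p = 0.0021, 0.0102 without wild-type replicate 2 and 0.0177 with no filter on dim probes). *Sp5*, a zinc finger target of WNT signalling, had a log2 fold change of -1.37 (SE 0.29, adjusted p = 0.00808), but it was called in 1 of 6 leave-one-out fits, the one without null replicate 3, and its adjusted p ran from 0.000214 to 0.0335 over these fits. It was not called with no filter on dim probes (0.0571) or with a trend and robust variance (0.0508). *Tcf7l1* was not called (0.22, adjusted p = 0.214). Of 10 output genes of MEK and ERK, which 2i inhibits, 6 were tested, 1 was lower and 0 were higher, with a median of 0.20. The lower one was the ETS factor gene *Etv4*, by at least 1.34-fold (adjusted p = 0.001, but 0.0121 with no filter on dim probes). Not called were *Egr1* (log2 fold change 2.36, SD 3.34 in wild-type), *Fos* (0.86, SD 2.00 in wild-type), *Spred1* (0.48), *Etv5* (-0.07) and *Dusp6* (-0.24).

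No gene at the core of the network was called lower. Of 11 core pluripotency genes 10 were tested, 2 were higher, 0 were lower and the median was 0.31. *Nanog* had a log2 fold change of -0.07 (SE 0.13, adjusted p = 0.721) on its brighter probe and 0.20 (adjusted p = 0.363) on the other. *Pou5f1* had one of 0.36 on its brightest probe, which was not called (adjusted p = 0.0281), and 0.60 on the other, which was (adjusted p = 0.00321). *Sox2* rose by 0.54 (SE 0.10, adjusted p = 0.00421). It was called in 2 of 6 leave-one-out fits, those without wild-type replicate 2 or null replicate 1 (adjusted p 0.00782 to 0.0201 over all 6), and not with a replicate block (0.0135). *Utf1*, a chromatin-associated factor, rose by 2.21 (SE 0.22, adjusted p = 0.000143). Of 20 other genes of the naive state, a list that shares *Nanog* and *Stat3* with those above, 14 were tested, 4 were lower, 0 were higher and the median was -0.13. The lower ones were *Jam2*, a junction adhesion molecule (-1.81, adjusted p = 0.000313), *Mras*, a small GTPase (-1.60, adjusted p = 6.98e-05), *Stat3*, and *Dppa3*, the maternal factor STELLA (-1.02, adjusted p = 0.00167, but 0.0139 with no filter on dim probes). The study also reports the lower *Dppa3* from these samples. Of 13 genes of the formative and primed epiblast, the state that follows the naive one, 6 were tested, 0 were lower, 3 were higher and the median was 0.91. *Otx2*, a homeobox factor of the primed state, was detected on 1 of 3 wild-type and 3 of 3 null arrays. Its mean was 8.43 ± 0.21 (SD, n = 3) in null and 5.44 ± 0.13 in wild-type cells, the latter below the lowest detected signal of each wild-type array. The fitted value was 2.99 on the log2 scale and ran from 1.47 to 2.99 over the other settings, all of which called it (adjusted p = 1.83e-06). The kinase gene *Pim2* was at least 2.68-fold higher (adjusted p = 0.00123, but 0.0157 with no filter on dim probes), and the de novo methyltransferase gene *Dnmt3b* rose by 0.95 (adjusted p = 0.00075). The rise of *Dnmt3b* is also reported by the study from these samples. Not called were *Cldn6* (0.86, adjusted p = 0.0126), *Zic2* (0.59, adjusted p = 0.0981) and *Pou3f1* (-0.28, adjusted p = 0.393). *Pou3f1* was detected on 2 of 3 wild-type and 1 of 3 null arrays.

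**Figure D4:**
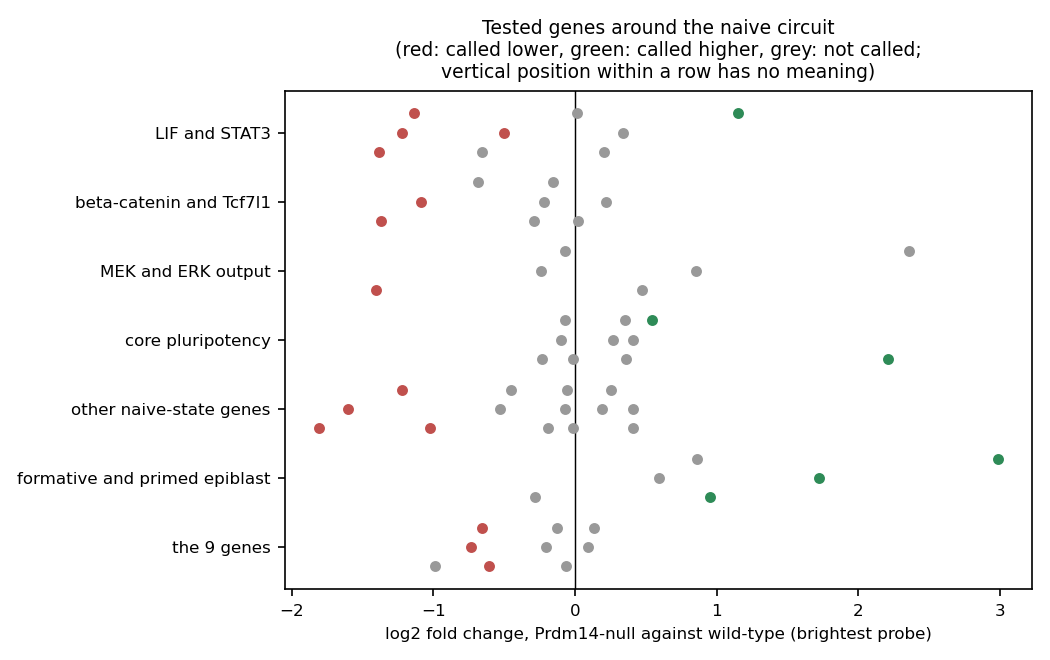
Log2 fold change between *Prdm14*-null and wild-type cells (horizontal axis) of the brightest probe of each tested gene in 7 lists, with red for genes called lower, green for genes called higher and grey for genes not called. For genes not above background in one genotype (*Pim1*, *Jak1*, *Lef1*, *Etv4* and *Pim2*) the fitted value is plotted, which is no bound. Called genes of the formative and primed epiblast lie to the right of 0 and called genes of the other naive-state list to the left. Genes of either list that were not called lie on both sides of 0.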

How the data were processed

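RNA from 3 wild-type and 3 *Prdm14*-null samples was hybridized to BeadChips by the authors, who deposited signal intensities of 45281 probes per array, not normalized, and a deposited detection p-value for each against negative control beads. The authors' processed values, deposited for 15961 probes, lie on a scale close to log2 (the submitters' processing notes name lumi) and served as an alternative. No source used here says which arrays lay on the same BeadChip. Median signals were 56.8 to 80.6, with 13456 to 14901 probes per array detected at a p under 0.01. Precision is limited by having 3 arrays per genotype.

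Here limma 3.58.1 (R 4.3.3) was used for a normal-exponential background correction, in which detection p-values stand in for the negative controls. Signals plus an offset of 16 were put on the log2 scale and quantile-normalized. Probes detected on at least 3 of 6 arrays were tested (lmFit, eBayes, genotype as the term, no block), with Benjamini-Hochberg adjustment over 14436 probes and a threshold of 0.01. Of these, 12582 carried 1 symbol, 6 several and 1848 none. The brightest probe stood for a gene. Where no array of a genotype detected a probe, its fold is a bound ("at least"): the brighter genotype's mean over a floor, which for every array of the dim genotype is its weakest detected signal or, if higher, that of the probe.

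The genes, lists and pairs were chosen with earlier results of these data known. Named are every gene of the group with all its probes, *Prdm14*, 6 partners of the circuit, and of each other list up to 3 called genes with the largest changes. *Pim3*, *Lifr*, *Il6st*, *Socs3*, *Tyk2*, *Dppa3*, *Dab2*, *Nes*, *Uty* and *Eif2s3y* were added after their values were seen. So were *Dppa5a* and those genes of the MEK and ERK output and of the formative and primed epiblast that were not called. Alternatives covered background, offset, scaling, probe filter, variance model, array weights, threshold, probe averaging, replicate block and each sample left out.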

Additional observations from a re-analysis of the deposited data

How the results depend on the processing

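No alternative moved the median of all tested probes by more than 0.03 on the log2 scale. *Tcl1* (both probes), *Klf5* and *Tfcp2l1* passed under each of the 11 other settings of the fit. *Gbx2* joined them, giving 4 lower genes, without background correction, with an offset of 50, under median scaling, in the authors' processed values, with an eBayes trend, with array weights and at a threshold of 0.05. Its adjusted p was 0.0734 with no filter on dim probes and 0.0358 with a trend and robust variance. With each sample left out in turn, the group had 1 to 3 lower genes and 0 higher ones, a median of -0.27 to -0.19, and 1188 to 1636 of all probes were called, where 1986 were called with all samples. At a threshold of 0.05, 3669 probes were called. The median of the group was -0.13 when the probes of a gene were averaged. Signs changed in 4 probes, none of them called. The dimmest *Klf4* probe read 0.058 with array weights and -0.18 to 0.18 with a sample left out, and in the same fits the dimmest *Tbx3* probe read 0.013 and -0.049 to 0.063. The brightest *Tbx3* probe ran from -0.19 to 0.042 and the third brightest from -0.078 to 0.17 with a sample left out. The causes were not tested. Samples with the same replicate number did not deviate together (correlations of -0.0269, -0.0638 and -0.125), so the numbers were not treated as pairs. With a replicate block 1588 probes were called, the group had 3 lower and 0 higher genes with a median of -0.21, and no call within it changed. Outside the group, no filter on dim probes ended the calls of *Dppa3*, *Jak1*, *Lef1*, *Sp5*, *Etv4*, *Pim2*, *Eras*, *Tbx4*, *Gata3* and *Krt7* (adjusted p 0.0109 to 0.0571), and the block ended those of *Sox2* and *Tyk2*.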

Other observations

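Among relatives of these genes few were called in either direction, where 8.40% of all genes were called lower and 6.69% higher. Of 17 further genes of the KLF and SP families 8 were tested, 1 was lower and 2 were higher. *Klf7* was called higher on all of its 3 probes, with log2 fold changes of 1.12 to 1.31, and its brightest probe went from 7.04 ± 0.21 (SD, n = 3) in wild-type to 8.16 ± 0.10 in null cells (limma, adjusted p = 0.000289). *Klf6* rose by 0.72 (SE 0.11, adjusted p = 0.00203). Both were called whichever sample was left out. The lower one was *Sp5*, which counts among the WNT targets as well.

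Of 20 relatives of the other genes of the group 5 were tested, 1 was lower and 1 higher. *Yy2*, a retroposed relative of *Yy1* and, like *Zfp42*, of the YY1 family, rose by 0.91 (SE 0.09, adjusted p = 0.000164). Its wild-type mean of 5.86 was near the lowest detected signals of the wild-type arrays (5.52 to 5.74). The size of its change ran from 0.34 to 0.91 over the other settings, all of which called it. *Tbx4* had a log2 fold change of -0.62 (adjusted p = 0.00949). It was called in 1 of 6 leave-one-out fits, that without wild-type replicate 1, and not in the authors' processed values (0.0131). A list of 11 genes was drawn up for the PI3K and AKT pathway in which *Tcl1* acts. Of this list 6 were tested, 0 were lower and 2 were higher, but 1 of these 2 is no gene of the pathway. That gene is *Pdk1*, which encodes a pyruvate dehydrogenase kinase and whose symbol only resembles that of the AKT kinase gene *Pdpk1*. It had a log2 fold change of 1.47 (adjusted p = 0.000246). The other was *Eras*, an ES cell Ras protein, with 1.42 (adjusted p = 0.00402). *Eras* was above background on 2 of 3 wild-type arrays and was not called without null replicate 1 (0.0158) or null replicate 2 (0.0188), or with no filter on dim probes (0.0346).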
